A study of Mus musculus with 6 samples.

Results

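The small leucine-rich proteoglycans (SLRPs) are a family of secreted matrix proteins, and the 10 genes described here, *Dcn*, *Bgn*, *Lum*, *Fmod*, *Omd*, *Ogn*, *Aspn*, *Epyc*, *Prelp* and *Kera*, were taken by gene name from a count table of 31613 mouse genes. RNA-seq was done on mDPCs, the mouse dental papilla cells under the tooth epithelium from which odontoblasts and pulp arise, isolated from C57BL/6J mice at postnatal day 6. The tested mice were Dmp1-Cre;Setd2fl/fl (cKO), in which Cre expressed from *Dmp1* sequences deletes *Setd2*, the gene of the enzyme that adds the H3K36me3 histone mark, in the odontoblast layer, while the pulp cells keep it. The controls (CTR) carried Setd2fl/fl without Cre according to the methods, whereas their genotype label is wild type. There were 3 cKO and 3 CTR libraries, and each held RNA pooled from 3 biological replicates. Fewer mice of each genotype are listed for this collection than pools of separate mice would need, so libraries of a genotype may share animals. The p-values therefore measure the spread between pooled libraries that may not be independent.

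SLRPs share a core protein built of leucine-rich repeats, which binds collagen fibrils and sets their diameter and spacing. Most carry glycosaminoglycan side chains, chondroitin or dermatan sulfate on decorin (*Dcn*) and biglycan (*Bgn*), and keratan sulfate on lumican (*Lum*), fibromodulin (*Fmod*) and their relatives. Several also bind growth factors or their receptors. In the tooth, SLRPs lie in predentin and dentin, where type I collagen is laid down by odontoblasts before it mineralizes.

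Depth was even, with 18557647 to 19164358 counts in cKO libraries and 18894240 to 19210750 counts in CTR libraries. *Setd2* had 98.7 ± 3.07 CPM (counts scaled to a common library size) in cKO and 95.3 ± 3.13 CPM in CTR libraries (SD, n = 3 each), but this count covers the whole gene in cells with and without Cre, so it does not check the genotype. Papilla and pulp markers summed to 1245 to 1418 CPM in cKO and 1140 to 1287 CPM in CTR libraries, with 10 of the 11 markers high enough to test. The replicate 3 libraries of both genotypes stood apart. Their 8 dental epithelium markers, enamel matrix genes such as *Amelx* among them, summed to 49893 CPM in cKO and 30186 CPM in CTR replicate 3, against 2207 to 7116 CPM in the other cKO and 2644 to 7265 CPM in the other CTR libraries. Most of each sum came from the enamel matrix genes *Amelx*, *Ambn* and *Enam*. *Cdh1*, *Shh*, *Krt14* and *Krt5* were also highest in replicate 3 of both genotypes, but *Epcam* was not in CTR libraries (11.1, 8.04 and 10.6 CPM). Odontoblast markers summed to 9372 to 57806 CPM in cKO libraries, with replicate 3 the highest, and to 98759 to 116313 CPM in CTR libraries.

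*Bgn* and *Epyc* were the SLRP genes whose transcripts fell in cKO mDPCs, each with every cKO library below every CTR library. No SLRP gene was called higher by edgeR with all libraries kept, which does not exclude a rise. The intervals given below for *Omd* (-0.51 to 2.13), *Aspn* (-0.55 to 1.49) and *Ogn* (-0.89 to 1.43) leave room for one. Some alternative fits called *Omd* higher. Fold changes were tested with edgeR. A gene is called lower or higher here when it passes the thresholds of the study, which ask for a log2 fold change of 0.58 or more in either direction and for p below 0.05 before adjustment. Of the 10 SLRP genes, 9 had enough counts to be tested, 2 were lower and 0 were higher, while 2.71% of the 16519 genes tested were lower and 1.1% were higher. *Kera* was too low to test. The same 2 genes were lower in all 3 cKO than in all 3 CTR libraries, which held for 7.98% of all genes tested, and no SLRP gene was higher in all cKO libraries, which held for 7.26%. The median log2 fold change was 0.06 over the 9 tested SLRP genes and 0.017 over all genes tested.

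After adjustment over all genes tested, edgeR called no gene in either direction (0.0%), while p before adjustment was below 0.05 for 729 lower and 523 higher genes. With DESeq2 the adjusted p was below 0.05 for 117 lower genes, *Bgn* among them, and for 24 higher ones. The labels number the libraries of each genotype but do not state that equal numbers are pairs. With the numbers taken as a replicate block, edgeR called *Bgn* (adjusted p = 0.0298) and *Epyc* (adjusted p = 0.0335) lower, beside 0.799% of all genes tested. Across genes only replicate 3 was set apart, so the other pairs rest on the numbers alone. In bulk RNA, fewer cells of a type and less transcript per cell cannot be told apart.

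**Figure D1:**
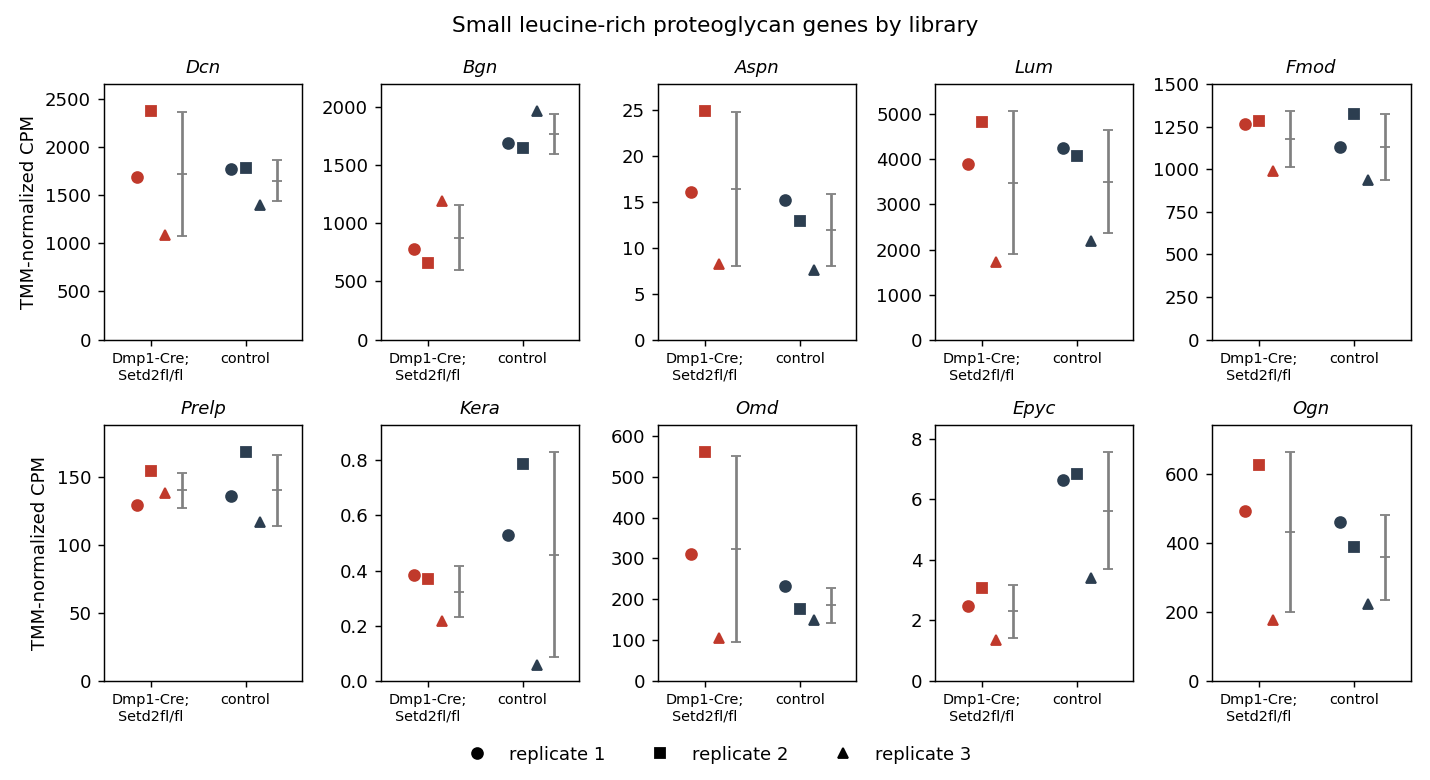
CPM scaled by TMM (y axis, each panel from 0) of the 10 SLRP genes in the 3 cKO libraries (red, left) and the 3 CTR libraries (dark, right), with the group mean and SD in grey and the marker shape giving the replicate number. *Bgn* and *Epyc* are the 2 panels in which every cKO library lies below every CTR library.

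Biglycan, decorin and asporin form the first class of the family. *Bgn* (ENSMUSG00000031375), which encodes biglycan, a proteoglycan of bone and dentin matrix, lies on chromosome X from 73483602 to 73495933 on the plus strand (GRCm38 numbering, as for all positions here). It passed the thresholds of the study, but not an adjusted p of 0.05 by edgeR over all 6 libraries without the block. It had 775, 659 and 1192 CPM in cKO replicates 1, 2 and 3, against 1691, 1646 and 1961 CPM in CTR replicates 1, 2 and 3. All cKO libraries lay below all CTR libraries, and replicate 3 was the highest of both groups. Mean levels were 875 ± 280 CPM in cKO and 1766 ± 170 CPM in CTR libraries (SD, n = 3 each), so the log2 fold change was -1.01 (SE 0.24, 95% interval -1.57 to -0.46, edgeR adjusted p = 0.558). The replicate block gave -1.05 (SE 0.17). The fall was present in every same-numbered pair, with log2 ratios of -1.13, -1.32 and -0.72. Without replicate 3 of both groups it was -1.21 (edgeR adjusted p = 0.00272), among 749 lower genes of 16708 tested at adjusted p under 0.05. Without cKO replicate 3 alone it was -1.30 (edgeR adjusted p = 0.00668), among 447 such genes of 16865. Leaving out any other single library gave *Bgn* an edgeR adjusted p of 0.639 or more. The odontoblast marker sum was likewise lower in every cKO library and highest among them in replicate 3, and its part in the fall of *Bgn* was not tested.

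The sequence around the start of *Bgn* is shown because this gene had the smallest p of the family. It is the RefSeq promoter of build GRCm38.p6, 250 bases before to 50 after the transcription start, and the capitals mark matches to 1 of 4 motifs searched on both strands.
Bgn promoter, chrX:73483351-73483650, plus strand: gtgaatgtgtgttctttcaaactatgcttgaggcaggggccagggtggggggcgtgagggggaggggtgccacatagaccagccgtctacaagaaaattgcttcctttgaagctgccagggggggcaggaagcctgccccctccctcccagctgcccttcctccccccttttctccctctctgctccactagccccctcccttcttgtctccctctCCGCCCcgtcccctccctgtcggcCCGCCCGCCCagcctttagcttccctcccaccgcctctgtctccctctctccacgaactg
The promoter is rich in G and C (63.7%) and holds the GC box letters GGGCGG, the motif of Sp1, on the minus strand at 34, 10 and 6 bases before the start, and the last 2 of these overlap. GGGCGG occurs in 35.9% of the 32544 promoters of the same length. None of the other letters searched, TATAAA (13.6% of promoters), TGTGGT of RUNX factors (16.7%) and TGANTCA of AP-1 (7.79%), was matched in this window.

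*Dcn* (ENSMUSG00000019929, chromosome 10 from 97479609 to 97518143), which encodes decorin, the closest relative of biglycan and a regulator of fibril diameter, had 1688, 2373 and 1086 CPM in cKO, against 1771, 1781 and 1400 CPM in CTR libraries. The groups overlapped, and cKO replicates 2 and 3 held the highest and the lowest values of all. The log2 fold change was 0.06 (SE 0.28, 95% interval -0.61 to 0.72, edgeR adjusted p = 0.969). This interval leaves room for a change of up to the threshold in either direction. *Aspn* (ENSMUSG00000021388, chromosome 13 from 49544443 to 49567565) encodes asporin, a periodontal matrix protein with a run of aspartic acid residues and no attached chains. It had 16.1, 24.9 and 8.24 CPM in cKO, against 15.2, 12.9 and 7.53 CPM in CTR libraries. Each cKO library was above its same-numbered CTR library, but the groups overlapped and the log2 fold change of 0.47 (SE 0.43, 95% interval -0.55 to 1.49, edgeR adjusted p = 0.786) did not pass. Without cKO replicate 3, *Aspn* passed as higher, with a log2 fold change of 0.79 (edgeR adjusted p = 0.217). Without cKO replicate 2 its log2 fold change was 0.0372.

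The second class holds lumican, fibromodulin, PRELP, keratocan and osteoadherin. *Lum* (ENSMUSG00000036446, chromosome 10 from 97565128 to 97572703), whose product binds collagen fibrils and is best known from the cornea, had 3891, 4833 and 1728 CPM in cKO, against 4253, 4079 and 2190 CPM in CTR libraries. The replicate 3 libraries of both genotypes lay below all others, and the groups overlapped. The log2 fold change was -0.01 (SE 0.42, 95% interval -1.0 to 0.98, edgeR adjusted p = 0.996). *Fmod* (ENSMUSG00000041559, chromosome 1 from 134037254 to 134048277), whose product is a collagen cross-linking modulator of tendon and predentin, had 1264, 1280 and 987 CPM in cKO, against 1129, 1324 and 934 CPM in CTR libraries. Its levels were close together, with a log2 fold change of 0.06 (SE 0.18, 95% interval -0.36 to 0.48, edgeR adjusted p = 0.943), so the interval excludes a change of 0.58 in either direction. *Prelp* (ENSMUSG00000041577, chromosome 1 from 133910304 to 133921414), whose product anchors basement membranes to connective tissue, was as even, at 129, 154 and 138 CPM in cKO, against 136, 168 and 117 CPM in CTR libraries. Its level in cKO was 0.999 of that in CTR libraries, and the 95% interval of -0.37 to 0.37 on the log2 scale excludes the same size of change (edgeR adjusted p = 0.999).

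*Kera* (ENSMUSG00000019932, chromosome 10 from 97606879 to 97613692), which encodes the corneal SLRP keratocan, was barely detected, with 8, 7 and 4 counts in cKO, against 10, 15 and 1 counts in CTR libraries. No difference was detectable at this depth. *Omd* (ENSMUSG00000048368, chromosome 13 from 49582462 to 49592822), which encodes osteoadherin, a SLRP of mineralizing matrix made by osteoblasts and odontoblasts, varied the most among cKO libraries relative to its mean. It had 310, 560 and 104 CPM in cKO, against 232, 175 and 149 CPM in CTR libraries. In cKO, replicates 1 and 2 lay above all CTR libraries and replicate 3 lay below them. The log2 fold change of 0.81 (SE 0.55, 95% interval -0.51 to 2.13, edgeR adjusted p = 0.726) did not pass, and the replicate block gave 0.52 (SE 0.57). Log2 ratios of same-numbered libraries were 0.42, 1.68 and -0.52. Without cKO replicate 2, the library with 560 CPM, the log2 fold change of *Omd* was 0.16. Without replicate 3 of both groups, *Omd* was the SLRP gene called higher (log2 fold change 1.10, edgeR adjusted p = 0.0501), where 4.49% of all genes tested were higher. It was also called higher without cKO replicate 3 alone (1.23). In both of these fits 3 of 7 macrophage markers were called higher too, and their part in the levels of *Omd* and *Aspn* was not tested.

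Epiphycan and osteoglycin belong to the third class. *Epyc* (ENSMUSG00000019936, chromosome 10 from 97644068 to 97682454), which encodes epiphycan, a dermatan sulfate proteoglycan known from growth plate cartilage, was the lowest of the tested SLRP genes and had the largest log2 fold change among them. It had 2.48, 3.07 and 1.36 CPM in cKO, against 6.62, 6.83 and 3.40 CPM in CTR libraries. These values rest on 52, 58 and 25 counts in cKO, against 125, 130 and 60 counts in CTR libraries. All cKO libraries lay below all CTR libraries, and replicate 3 was the lowest of each group. The log2 fold change was -1.28 (SE 0.40, 95% interval -2.22 to -0.35, edgeR adjusted p = 0.625). With the replicate block it was -1.29 (SE 0.21), and the log2 ratios of same-numbered libraries were -1.38, -1.13 and -1.26. DESeq2 gave an adjusted p of 0.179. Without CTR replicate 2 the value was -1.12 and the call was lost (edgeR adjusted p = 0.982), and without replicate 3 of both groups it was -1.27. Cartilage markers summed to 135, 128 and 66.2 CPM in cKO, against 146, 150 and 108 CPM in CTR libraries, with 0 of 6 tested genes lower, and their part in the fall of *Epyc* was not tested.

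The *Epyc* promoter that starts at the gene's annotated start in the table is shown as that of the other gene that fell, with capitals as above.
Epyc promoter, chr10:97643818-97644117, plus strand: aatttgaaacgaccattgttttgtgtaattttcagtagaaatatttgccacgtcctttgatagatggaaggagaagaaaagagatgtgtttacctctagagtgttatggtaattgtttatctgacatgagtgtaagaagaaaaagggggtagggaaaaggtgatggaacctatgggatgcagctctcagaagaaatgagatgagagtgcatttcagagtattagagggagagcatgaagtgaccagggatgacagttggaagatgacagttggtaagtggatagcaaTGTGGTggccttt
It holds 40.3% G and C and a single match, the RUNX letters TGTGGT on the plus strand, 38 bases into the transcript. It has no GC box, unlike the *Bgn* promoter. A second *Epyc* promoter in RefSeq, on chromosome 10 from 97646853 to 97647152, holds none of the 4 motifs.

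*Ogn* (ENSMUSG00000021390, chromosome 13 from 49608046 to 49624501), which encodes osteoglycin, also called mimecan, a SLRP of bone and connective tissue, had 493, 626 and 175 CPM in cKO, against 462, 389 and 222 CPM in CTR libraries. The groups overlapped, and replicate 3 was the lowest of each. The log2 fold change was 0.27 (SE 0.48, 95% interval -0.89 to 1.43, edgeR adjusted p = 0.9).

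**Figure D2:**
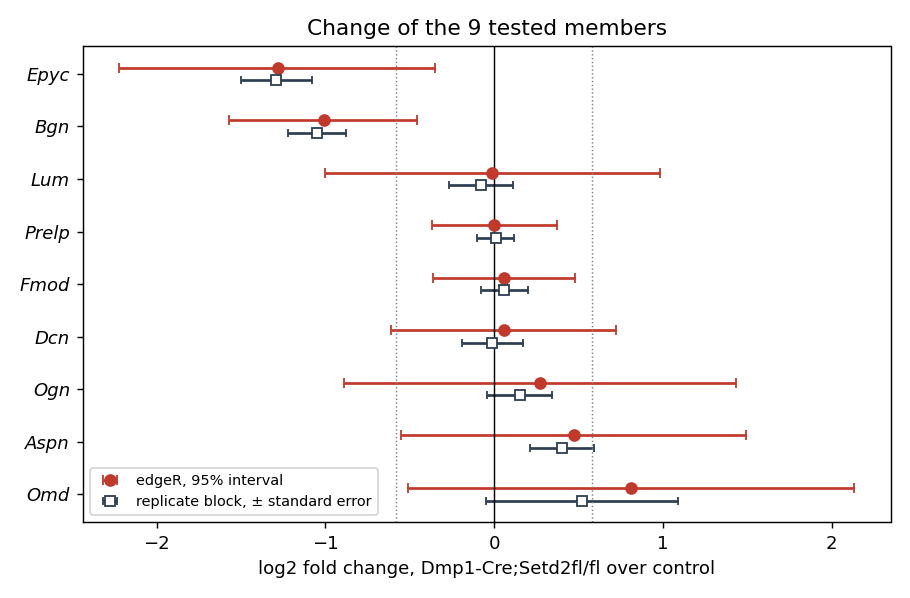
Log2 fold change of cKO over CTR (x axis) for the 9 tested SLRP genes, from the fit without a block (filled circles, 95% interval) and with the replicate block (open squares, standard error), with dotted lines at 0.58 in each direction. The intervals of *Epyc* (-2.22 to -0.35) and *Bgn* (-1.57 to -0.46) lie below 0 and the other 7 include 0.

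To compare genes with each other, CPM were divided by transcript length. Per kilobase, *Lum* was the highest SLRP transcript in both groups, at 1416 ± 647 CPM per kb in cKO and 1426 ± 465 CPM per kb in CTR libraries (SD, n = 3 each). *Bgn* stood next in CTR libraries, at 729 ± 70.4 CPM per kb, above *Fmod* (362 ± 62.4) and *Dcn* (270 ± 35.6). In cKO libraries *Bgn* was at 362 ± 116 CPM per kb, beside *Fmod* (377 ± 52.7) and *Dcn* (281 ± 105), and these 3 neighbours in the order did not differ beyond their spread. *Omd* (156 ± 110 CPM per kb in cKO, 89.4 ± 20.4 in CTR) and *Ogn* (83.3 ± 44.9 in cKO, 69.1 ± 23.7 in CTR) followed, and their order in CTR libraries depended on the transcript length used. *Prelp* (32.5 ± 2.93 in cKO, 32.5 ± 6.03 in CTR) and *Aspn* (6.93 ± 3.52 in cKO, 5.01 ± 1.65 in CTR) were lower. *Epyc* (0.906 ± 0.343 in cKO, 2.21 ± 0.757 in CTR) and *Kera* (0.141 ± 0.0402 in cKO, 0.200 ± 0.162 in CTR) closed the order in both groups.

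Together the 10 genes took 0.949%, 1.07% and 0.521% of all counts in cKO, against 0.966%, 0.949% and 0.653% in CTR libraries, so the family total overlapped between groups and was lowest in replicate 3 of each. The make-up of that total shifted for *Bgn*. It gave 9.04%, 6.27% and 22.0% of the SLRP counts in cKO, against 17.4%, 17.2% and 28.1% in CTR libraries. Each cKO library was below its same-numbered CTR library, although cKO replicate 3 exceeded CTR replicates 1 and 2. *Lum* gave 45.4%, 46.0% and 31.9% in cKO, against 43.9%, 42.6% and 31.4% in CTR libraries, and only replicate 3 stood apart, as the lowest share of both groups. *Dcn* kept to 19.7%, 22.6% and 20% in cKO, against 18.3%, 18.6% and 20% in CTR libraries. Counting error was small, since the widest 95% Wilson interval of any of these shares spanned 0.578 percentage points, and such intervals cover counting error only.

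**Figure D3:**
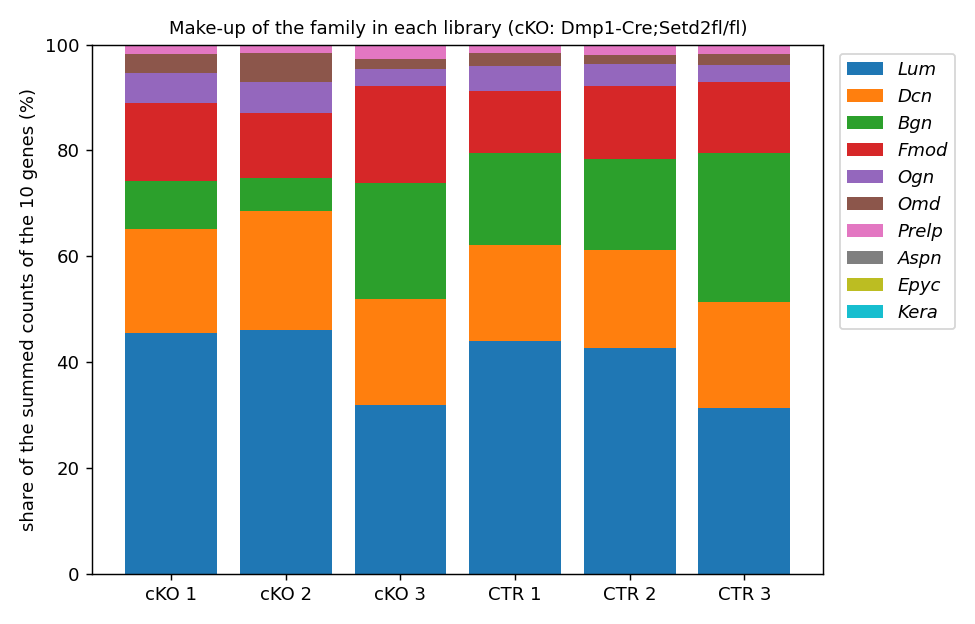
Stacked bars of the share of each gene in the summed counts of the 10 SLRP genes (y axis, percent) in cKO libraries 1 to 3 and CTR libraries 1 to 3. The *Bgn* segment is 9.04%, 6.27% and 22.0% in cKO and 17.4%, 17.2% and 28.1% in CTR libraries, while the *Lum* segment is 31.9% in cKO replicate 3 and 31.4% in CTR replicate 3.

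All SLRP genes but *Bgn* lie beside other SLRP genes, and neighbours could be compared. On chromosome 10, *Dcn*, *Lum*, *Kera* and *Epyc* lie in this order within 202.8 kb, from 97479609 to 97682454, all on the plus strand. *Dcn* and *Lum* at one end did not pass the thresholds, and *Epyc* at the other end was lower. *Atp2b1*, which encodes a plasma membrane calcium pump and is the nearest tested protein-coding gene beyond *Epyc* at 1232 kb, had 80.7, 69.6 and 237 CPM in cKO, against 377, 334 and 378 CPM in CTR libraries, and was lower (log2 fold change -1.49, SE 0.47, edgeR adjusted p = 0.626). *Btg1*, the nearest on the *Dcn* side at 856.8 kb, averaged 222 ± 52.7 CPM in cKO and 212 ± 21.6 CPM in CTR libraries.

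On chromosome 13, *Aspn*, *Omd* and *Ogn* lie within 80.1 kb, from 49544443 to 49624501, with *Ecm2*, another matrix protein gene with leucine-rich repeats, 11.7 kb before *Aspn*. None of the 4 passed the thresholds. All had cKO replicate 2 as the highest library, and *Ecm2*, *Omd* and *Ogn* had cKO replicate 3 as the lowest. *Dcn* and *Lum* on chromosome 10 also had these libraries as highest and lowest, so this pattern was not particular to chromosome 13. *Ecm2* had 43.7, 56.0 and 23.2 CPM in cKO, against 39.1, 37.6 and 26.6 CPM in CTR libraries (log2 fold change 0.25, SE 0.32). *Cenpp*, a centromere protein gene on the opposite strand that overlaps all 3 SLRP genes, had at most 4.24 CPM, so without strand its reads could weigh on *Aspn* but little on *Omd* or *Ogn*. *Nol8*, the next tested gene after *Ogn*, had a log2 fold change of 0.31 (SE 0.24).

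The promoters of *Aspn* and *Ogn*, both of this chromosome 13 group, are shown because both hold matches, with capitals as above.
Aspn promoter, chr13:49544193-49544492, plus strand: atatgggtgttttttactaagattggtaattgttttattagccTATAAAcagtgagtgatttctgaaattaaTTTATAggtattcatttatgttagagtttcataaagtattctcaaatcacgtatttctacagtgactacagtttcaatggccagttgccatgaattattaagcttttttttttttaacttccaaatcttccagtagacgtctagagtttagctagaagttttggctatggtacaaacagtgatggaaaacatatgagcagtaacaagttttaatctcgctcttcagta
Ogn promoter, chr13:49607765-49608064, plus strand: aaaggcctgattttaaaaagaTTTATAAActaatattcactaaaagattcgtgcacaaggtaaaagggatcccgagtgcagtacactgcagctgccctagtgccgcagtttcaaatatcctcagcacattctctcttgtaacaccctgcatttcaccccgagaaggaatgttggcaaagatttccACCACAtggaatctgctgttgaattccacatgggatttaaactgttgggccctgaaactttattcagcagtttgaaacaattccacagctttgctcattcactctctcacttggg
Both hold the TATA box letters TATAAA on both strands, in *Aspn* 207 bases before the start on the plus strand and 178 before it on the minus strand, and in *Ogn* 229 bases before it on the minus strand, where it overlaps the plus-strand match. *Ogn* also holds the RUNX letters on the minus strand 65 bases before the start. The *Omd* promoter, between them in the genome, holds none of the 4 motifs, and the *Fmod*, *Prelp* and *Kera* promoters hold none either. RefSeq promoters were matched for 8 of the 10 genes.

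*Fmod* and *Prelp* lie on chromosome 1 within 138.0 kb, from 133910304 to 134048277, on opposite strands. They were the steadiest pair, with SEs of 0.18 and 0.16 on the log2 scale. Their neighbours *Optc*, the gene of the related eye protein opticin, and *Btg2*, an antiproliferative gene, had log2 fold changes of -0.49 (SE 0.33) and -0.36 (SE 0.21), and neither passed. *Bgn* on chromosome X has *Haus7* and *Atp2b3* beside it. *Haus7*, a spindle gene, averaged 29.1 ± 1.4 CPM in cKO and 31.7 ± 4.91 CPM in CTR libraries, and *Atp2b3*, another calcium pump gene 7.2 kb beyond *Bgn*, averaged 13 ± 3.39 CPM in cKO and 18.1 ± 4.51 CPM in CTR libraries (log2 fold change -0.47, SE 0.26, edgeR adjusted p = 0.696). Overlapping genes on the opposite strand of *Epyc* and *Prelp* stayed at or below 0.318 CPM.

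**Figure D4:**
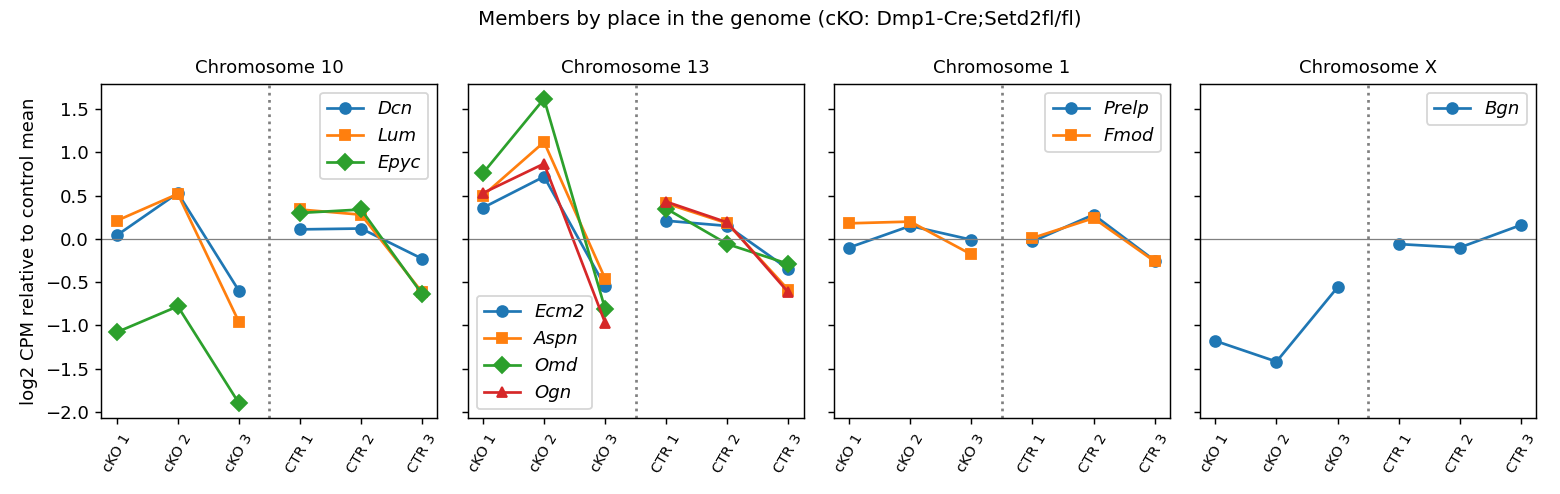
Log2 CPM relative to the CTR mean (y axis) of the SLRP genes and *Ecm2* in cKO libraries 1 to 3 and CTR libraries 1 to 3 (x axis), grouped by chromosome, with *Kera* left out for low counts. *Epyc* lies between -1.90 and -0.78 in cKO libraries while *Dcn* and *Lum* on the same chromosome lie on both sides of 0. The chromosome 13 genes peak in cKO replicate 2, and so do *Dcn* and *Lum*.

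Count ratios between genes of the same library need no scaling between libraries, and are given as a description. Per 1000 *Lum* counts there were 0.638, 0.635 and 0.785 *Epyc* counts in cKO, against 1.56, 1.68 and 1.55 in CTR libraries. This ratio was much tighter than either gene alone, both of which were low in replicate 3, and the groups were far apart. It rests on 25 to 130 *Epyc* counts in a library, so counting error bears on how tight it looks. Per 1000 *Dcn* counts there were 1.47, 1.29 and 1.25 *Epyc* counts in cKO, against 3.74, 3.84 and 2.43 in CTR libraries. *Bgn* to *Fmod* was 0.613, 0.515 and 1.21 in cKO, against 1.5, 1.24 and 2.1 in CTR libraries, without overlap. *Bgn* to *Dcn* was 0.459, 0.278 and 1.10 in cKO, against 0.955, 0.924 and 1.4 in CTR libraries, where the groups overlapped through cKO replicate 3. *Omd* to *Ogn* was 0.629, 0.893 and 0.594 in cKO, against 0.502, 0.449 and 0.672 in CTR libraries, and overlapped. *Fmod* to *Prelp* was 9.78, 8.30 and 7.17 in cKO, against 8.29, 7.86 and 8 in CTR libraries. The groups overlapped, and the spread was wider in cKO (SD 1.31) than in CTR libraries (SD 0.223).

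**Figure D5:**
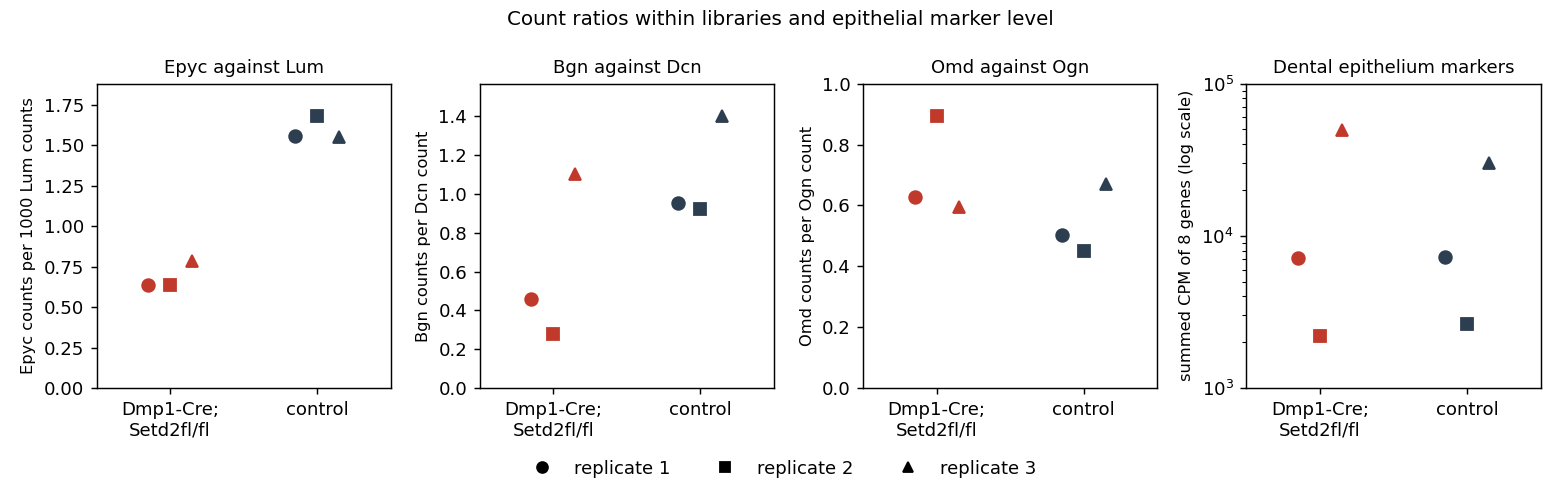
Count ratios within each library for *Epyc* against *Lum*, *Bgn* against *Dcn* and *Omd* against *Ogn* (linear y axes from 0), and the summed CPM of 8 dental epithelium markers (log y axis), in cKO (red, left) and CTR libraries (dark, right) by replicate number. The *Epyc* to *Lum* ratio is 0.635 to 0.785 in cKO and 1.55 to 1.68 in CTR libraries, and the epithelial sum is highest in replicate 3 of both groups.

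Replicate 3 was an extreme library for most of the family. In cKO, replicate 2 was the opposite extreme for *Dcn*, *Lum*, *Omd*, *Ogn* and *Aspn*. *Dcn*, *Lum*, *Fmod*, *Omd*, *Ogn*, *Aspn*, *Epyc* and *Kera* were lowest in replicate 3 of each genotype, *Prelp* was lowest there in CTR libraries, and *Bgn* was highest there in both. The epithelial sum given above was highest in these libraries, and no marker of that list was at 0 in all libraries. Macrophage markers summed to 1424, 1793 and 539 CPM in cKO, against 1029, 1147 and 690 CPM in CTR libraries, so this sum was lowest in replicate 3 as well. In CTR libraries *Cd68* (25.3, 25.9 and 27.3 CPM) and *Csf1r* (208, 238 and 213 CPM) were not lowest there, while the other genes of the list were. Neutrophil markers, few in number and low, summed to 67.2, 134 and 5.15 CPM in cKO, against 20.5, 11.7 and 4.36 CPM in CTR libraries, with 2 of 5 tested genes, *Ngp* and *Camp*, higher. No neutrophil gene was higher without cKO replicate 1, cKO replicate 2, CTR replicate 2 or CTR replicate 3, nor with no filter on low counts or with at least 10 counts asked of every library. Without CTR replicate 1 the count was 1, and without cKO replicate 3 it was 5. The part of these cells in the levels of the SLRP genes was not tested.

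The other genes of SLRP biology were read from lists beside the 2.71% lower and 1.1% higher among all genes. Of 14 fibrillar and fibril-bound collagen genes, the ligands of SLRPs, 4 were lower and 0 higher, with a median log2 fold change of -0.28 beside 0.017 over all genes. *Col11a1*, which nucleates fibrils, had 142, 115 and 358 CPM in cKO, against 781, 772 and 767 CPM in CTR libraries (log2 fold change -1.92, SE 0.43, edgeR adjusted p = 0.558). *Col5a2*, a regulator of fibril diameter, had 622, 561 and 811 CPM in cKO, against 1427, 1412 and 1300 CPM in CTR libraries (-1.05, SE 0.17, edgeR adjusted p = 0.45). The type I collagen genes *Col1a1* (-2.20, SE 0.84) and *Col1a2* (-1.64, SE 0.64) fell with a wider spread, since cKO replicate 3 kept 29955 CPM of *Col1a1* where the other cKO libraries had 4847 and 3262 CPM. Leaving out any single library other than cKO replicate 3 reduced the lower collagen genes to 2, as did fitting with no filter on low counts.

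Among 9 tested genes of proteases that cut SLRPs and their helpers, 2 were lower and 0 higher. *Bmp1*, whose product removes the propeptide of biglycan and of procollagen, averaged 424 ± 80.8 CPM in cKO and 659 ± 12.3 CPM in CTR libraries (log2 fold change -0.63, SE 0.16, edgeR adjusted p = 0.587). *Pcolce*, which enhances BMP1 on procollagen, averaged 425 ± 127 CPM in cKO and 864 ± 150 CPM in CTR libraries (-1.03, SE 0.23, edgeR adjusted p = 0.558). These are the protease and the enhancer of a shared processing step. Without cKO replicate 2 this list held 1 lower gene, and without cKO replicate 3 it held 4.

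Of 16 tested growth factors and receptors that SLRPs bind, 2 were lower and 1 higher. *Wisp1*, a secreted CCN family protein bound by decorin and biglycan, averaged 107 ± 78.9 CPM in cKO and 292 ± 26.9 CPM in CTR libraries (log2 fold change -1.45, SE 0.48). *Vegfa* was lower too (-0.59, SE 0.21), and *Met*, the hepatocyte growth factor receptor bound by decorin, was higher at 8.86 ± 2.18 CPM in cKO and 5.80 ± 1.17 CPM in CTR libraries (0.61, SE 0.25). The calls of *Vegfa* and *Met* were close to the fold threshold. No gene of the list was lower without cKO replicate 1 or without cKO replicate 2, 1 was without CTR replicate 1 or CTR replicate 2, and 5 were without cKO replicate 3. No gene of the list was higher without cKO replicate 2, CTR replicate 2 or CTR replicate 3.

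Enzymes that build the side chains are given by chain type. Of 22 chondroitin and dermatan sulfate enzymes, 4 were lower and 0 higher, and the median log2 fold change was -0.15. *Dsel*, an epimerase that turns chondroitin into dermatan sulfate, had 67.7, 69.4 and 70.2 CPM in cKO, against 132, 116 and 103 CPM in CTR libraries (-0.76, SE 0.12, edgeR adjusted p = 0.45). Its cKO libraries were almost alike and all below the CTR libraries. The sulfotransferase genes *Chst11* (-0.76, SE 0.28) and *Chst13* (-2.80, SE 0.77) and the chain-starting enzyme gene *Csgalnact1* (-0.62, SE 0.22) were also lower. This count was 2 without cKO replicate 1, cKO replicate 2 or CTR replicate 3. Of 9 tested keratan sulfate enzymes, 0 were lower and 0 higher at the thresholds by edgeR or DESeq2, with a median of 0.05 and *B4galt1* alone at an unadjusted p under 0.05 (log2 fold change -0.34). The difference between the lists was not tested. Of 8 other matrix proteins with leucine-rich repeats, such as *Ecm2*, *Optc* and *Tsku*, 0 were lower and 0 higher and none had an unadjusted p below 0.05, with a median of -0.33, and DESeq2 also called 0. Without replicate 3 of both groups, 2 of these were lower.

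Of the marker lists of cell types, the odontoblast list had the most genes called. Of its 15 genes, 10 were lower and 0 higher, with a median log2 fold change of -1.21. By the smallest p, these were led by *Nes*, an intermediate filament gene (574 ± 242 CPM in cKO, 1326 ± 119 CPM in CTR), *Phex*, an endopeptidase gene of phosphate balance (92.3 ± 104 CPM in cKO, 779 ± 159 CPM in CTR), *Enpp1*, whose enzyme makes pyrophosphate (24.5 ± 10.1 CPM in cKO, 50.8 ± 7.56 CPM in CTR) and the transcription factor gene *Sall1* (21.0 ± 8.98 CPM in cKO, 38.7 ± 5.93 CPM in CTR). The count was 5 with no filter on low counts, 3 without cKO replicate 1, 4 without cKO replicate 2, 6 without CTR replicate 2 and 5 without CTR replicate 3. *Col1a1*, *Col1a2* and *Wisp1* stand in this list and in those above. Apart from *Nes* and *Col1a2*, the 10 lower genes were already named by the study as lower in this RNA-seq, so their count is no independent support. Of 5 tested bone-forming cell markers, *Bglap* and *Bglap2* were lower, and with the replicate block 0 were. Of 10 papilla and pulp markers 1, *Lhx8*, was lower (-0.62, SE 0.19), and 0 were lower by voom, without cKO replicate 2, without CTR replicate 3 (where 1 was higher) or without replicate 3 of both groups. Of 9 dental follicle and periodontal markers 0 were lower and 0 higher, but 1 was lower and 1 higher by voom. In this list 1 was lower without cKO replicate 3, and 1 was higher without CTR replicate 3 or without replicate 3 of both groups. Voom also called 1 epithelial and 1 cartilage marker lower, and 1 glial and 1 red blood cell marker higher. The lists of epithelial, endothelial, mural, macrophage, muscle, glial and red blood cell markers had no gene past the thresholds by edgeR or DESeq2 and 1 gene, a mural marker, at p below 0.05 before adjustment, with replicate block calls of 1 higher epithelial, 1 lower mural, 1 lower follicle and 2 lower cartilage markers. Without cKO replicate 3, and likewise without replicate 3 of both groups, 3 of the 7 macrophage markers were higher and 1 epithelial and 1 mural marker were lower, with 1 epithelial marker higher in the second of these fits.

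Finally, the genes with the most similar level pattern were sought for *Bgn*, the called gene with the smallest p, and for *Lum*, the one with the highest mean level. Likeness was the root mean square difference of centred log2 CPM over the 6 libraries among 10478 genes of at least 10 mean CPM. The pattern of *Bgn* was most like those of *Pcolce* (0.0908), *Cd248* (0.0969), *Ank3* (0.0974) and *Ptprk* (0.105). *Cd248*, a surface glycoprotein gene of mesenchymal cells, had 126, 110 and 201 CPM in cKO, against 239, 268 and 317 CPM in CTR libraries. All 4 had the lowest level in cKO replicate 2 and no overlap of groups, traits of *Bgn* for which the search selects. The pattern of *Lum* was most like those of *Ddn* (0.0876), *Cd33* (0.0938), *Nr0b1* (0.121) and *H2-D1* (0.121). These 4 were low in replicate 3 of both groups and overlapped between genotypes, traits of *Lum* for which the search likewise selects. *H2-D1*, a class I histocompatibility gene, had 344, 355 and 154 CPM in cKO, against 332, 379 and 172 CPM in CTR libraries.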

How the data were processed

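RNA-seq counts of 6 mDPC libraries (3 cKO, 3 CTR) were analysed. The authors deposited raw whole-number counts, made by HISAT2 alignment and unstranded HTSeq counting, although FPKM are also mentioned in their methods. The submitters' processing notes name GRCm39, Bowtie2 and DESeq2 as well. Gene positions in the table, however, share a start or end with 47.4% of RefSeq GRCm38.p6 genes and with 1.25% of GRCm39 genes, so positions are given in GRCm38 numbering. The remaining deposited columns are the authors' own comparison (a mean signal, a ratio, the log2 of that ratio, and p-values), and they were not used here. Per-sample columns left unused numbered 0, and every line names a gene.

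Counts were fitted with edgeR 4.0.16 under R 4.3.3. Low genes were removed by filterByExpr (minimum count 10), libraries were scaled by TMM, and the robust quasi-likelihood F test was two-sided, with p-values adjusted after Benjamini-Hochberg over 16519 genes. TMM-scaled library sizes enter all CPM, and a prior count of 2 was added for log2 CPM. Levels per kilobase use Ensembl canonical transcript lengths, with the median coding transcript tried beside them. The spread between libraries was 25.3% (the coefficient of variation, from a dispersion of 0.064), well above counting error at this depth. All 6 pairs of libraries within a genotype differed by more than sampling noise. The edgeR fits with and without the replicate block, voom and DESeq2 were checked with simulated counts of independent libraries without a replicate effect. The other alternatives were not checked in this way. Alternatives were DESeq2 1.42.0, RLE size factors, scaling without the 100 highest genes, no filter, at least 10 counts in every library, limma 3.58.1 voom with quality weights, leaving out single libraries, leaving out replicate 3 of both groups, and the replicate block.

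Replicate numbers come from the labels. Across genes, the deviations of cKO and CTR libraries from their group means correlated at 0.453 for number 1, 0.465 for number 2 and 0.663 for number 3. The replicate block treats libraries as paired by number, which the labels do not state. The crossed pairs of numbers 1 and 2 reached 0.455 and 0.380, so that only replicate 3 was set apart.

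The SLRP genes and the 20 gene lists were chosen with earlier results of these data known, so list counts are no independent support. Genes named were all 10 SLRP genes, *Setd2*, up to 4 genes of each list with the smallest p past the thresholds, the neighbours of each genomic group and the 4 genes most like *Bgn* and *Lum*. Markers named for an extreme library, such as *Amelx*, genes named for comparison, such as *B4galt1*, and list examples were chosen after their values were seen. Promoter sequences are from RefSeq.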

Additional observations from a re-analysis of the deposited data

How the results depend on the processing

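Of the SLRP results, *Bgn* kept its direction and its call in every alternative run, with log2 fold changes of -1.30 to -0.84. *Epyc* kept its direction in all of them, with -1.54 to -1.02 when a library was left out, and lost its call without CTR replicate 2 (-1.12). The 7 other tested genes had values near 0 or wide intervals, and the sign of 5 of them turned. *Dcn* was -0.0444 by voom and -0.00736 with the replicate block, and -0.25 to 0.30 when a library was left out. *Lum* was 0.0729 without replicate 3 of both groups, and -0.32 to 0.31 when a library was left out. *Prelp* was 0.00255 by DESeq2, 0.00262 with RLE size factors, 0.00406 with no filter and 0.011 with the replicate block, and -0.12 to 0.15 when a library was left out. *Fmod* was -0.0578 to 0.19 and *Ogn* -0.1 to 0.65 when a library was left out. *Omd* passed as higher by voom (0.70) and without replicate 3 of both groups (1.10), and was 0.16 to 1.23 when a library was left out, and *Aspn* was 0.0372 to 0.79. The lowest value of each of these genes came without cKO replicate 2, and the highest without cKO replicate 3. The cause of these changes was not tested.

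The number of SLRP genes lower was 1 to 2 and the number higher 0 to 2 when a library was left out, and 1 was higher by voom and 1 without replicate 3 of both groups. Over all genes tested, 448 were lower and 181 higher. Lower genes numbered 1109 by voom, 722 with the replicate block, 1261 without replicate 3 of both groups and 282 to 1162 when a library was left out. Higher genes numbered 458 by voom, 338 with no filter, 339 with the replicate block, 750 without replicate 3 of both groups and 83 to 677 when a library was left out. Of the counts over lists, 455 stayed within 1.5 times the value given and 77 did not. The replicate block changed no other call on the SLRP genes than the adjusted calls of *Bgn* and *Epyc*. Depth limits *Kera*, with at most 15 counts in a library, and sets the counting error of *Epyc*.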
